A study of Rattus norvegicus with 6 samples.

Results

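Toll-like receptors and the proteins that work with them were followed in RNA sequencing of rat myocardium after coronary ligation. The group was fixed by gene family as 7 receptors (Tlr2, Tlr3, Tlr4, Tlr5, Tlr6, Tlr7 and Tlr8), the co-receptors Cd14 and Ly96, and the adaptor Myd88. Of these 10 genes 9 were measured, among 32623 genes in all, and Ly96 was not analysed here. The samples were myocardial tissue of wild-type male rats, 3 taken after a sham operation and 3 with the left anterior descending coronary artery tied, and the labels give 30 min for every sample of either group. All rats were anesthetized and ventilated and had a left thoracotomy, and for sham rats no ligation is described. The study describes hearts after ischemia alone and, separately, after reperfusion, and the labels of these samples name ischemia. Strain, age, and the part of the heart that was taken were not given in the sources used here. Total RNA of whole tissue was sequenced, so more cells of a type and more RNA per cell cannot be told apart.

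Toll-like receptors recognize microbial molecules and products of damaged cells, and they are among the first sensors of innate immunity in the injured heart. Tlr2, Tlr4, Tlr5 and Tlr6 sit at the cell surface, whereas Tlr3, Tlr7 and Tlr8 sense RNA inside endosomes. Cd14 hands lipopolysaccharide and other lipids to Tlr4 and to Tlr2, and Ly96 is the lipopolysaccharide-binding partner of Tlr4. Myd88 couples these receptors to the Irak kinases and NF-κB, with the exception of Tlr3, which signals through the adaptor Ticam1. Myeloid cells carry most surface receptors, and cardiomyocytes and endothelial cells also express Tlr4.

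Promoter sequences were examined for shared motifs, since all ischemia values of Cd14, Myd88 and Tlr2 lay above all sham values. RefSeq sequences of the 250 bases before a transcription start were matched by symbol for all 9 measured genes (build GRCr8, which need not be the build of the expression table). Both strands were searched for the NF-κB consensus motif, the AP-1 motif TGANTCA and the interferon response motif, which is GAAA, any 2 bases and GAAA. Of 33469 rat promoter windows of that length, 3.54% held the NF-κB motif, 6.34% the AP-1 motif and 3.41% the interferon response motif. Among the 9 genes, Tlr2 held the NF-κB motif and Myd88 held an AP-1 and an interferon response motif, and the windows of the other genes held none of these letters. A match describes letters in the window only. The capitals mark the matches in the lines that follow, which show 30 bases around the Tlr2 match at chr2:171504744-171504773 (minus strand), the whole Myd88 window at chr8:127956231-127956480 (minus strand) and, as a window with no match, that of Tlr4 at chr5:85160997-85161246 (plus strand).
Tlr2: caggcccttgGGGGAATTCCCatacggagc
Myd88: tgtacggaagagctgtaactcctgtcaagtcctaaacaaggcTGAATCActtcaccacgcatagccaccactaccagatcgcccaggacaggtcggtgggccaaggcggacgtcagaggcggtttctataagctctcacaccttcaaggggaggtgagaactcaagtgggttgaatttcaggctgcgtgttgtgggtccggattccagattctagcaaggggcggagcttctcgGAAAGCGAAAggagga
Tlr4: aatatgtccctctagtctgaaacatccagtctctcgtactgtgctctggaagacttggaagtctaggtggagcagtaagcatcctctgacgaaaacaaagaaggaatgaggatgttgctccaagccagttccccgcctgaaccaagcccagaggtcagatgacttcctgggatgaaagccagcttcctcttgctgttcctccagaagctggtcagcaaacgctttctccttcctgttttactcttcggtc
In Tlr2 the capitals span 11 bases, because 2 matches of the palindromic NF-κB motif overlap there, from 206 to 196 bases before the start. The whole windows of Tlr2, Tlr5 and Cd14, 102 bases of that of Tlr7 and 12 of that of Tlr8 lie within the span RefSeq gives for the gene.

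Total counts ranged from 68529126 to 79591989 per sample. Summed FPKM (fragments scaled to gene length and library size, the level used here to compare genes) of 6 cardiomyocyte markers was 23500 to 31500 in sham and 8520 to 16300 in ischemia. Of these markers, Myh6, Actc1 and Ryr2 were lower in all ischemia libraries than in all sham libraries, and Tnnt2, Tnni3 and Myl2 overlapped. Some libraries stood apart. The sum over 4 Y-linked genes was 26 counts in sham replicate 1 and at least 1772 elsewhere, while the labels call the rats male. The sum of 4 atrial markers was 215 in sham replicate 2 and 48300 and 39200 in sham replicates 1 and 3, and 1280 to 9610 in ischemia. Ischemia replicate 2 had the highest leukocyte marker levels. Results are therefore also given without these libraries where that matters.

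Transcripts of Cd14, Myd88 and Tlr2 were higher in all 3 ischemia libraries than in all sham libraries, and those of Cd14 and Myd88 passed the test. Cd14, the co-receptor, rose 9.75-fold and Myd88, the adaptor, 4.25-fold, and the estimate for Tlr2 was 16.5-fold without passing. Tlr4, the receptor that Cd14 serves, and Tlr5 and Tlr8 overlapped between the groups. Tlr3 had the only negative estimate among the 9 genes, also without passing. In number, 2 of 9 measured genes were called higher at an adjusted p under 0.05 in the quasi-likelihood test of edgeR, against 5.18% of 13964 tested genes, and 0 were called lower, against 1.53%. At an unadjusted p under 0.05 there were 5 of the 9 in edgeR, against 32.4% of all tested genes. DESeq2, with 14.8% of genes called higher and 12.5% lower, called 5 of the 9 higher. Without ischemia replicate 2, edgeR called 3 (Cd14, Myd88 and Tlr2; background 3.31% higher, 0.781% lower), and without ischemia replicate 1 it called 4 (Tlr7 besides; 10.7% higher, 7.98% lower). No gene of the table passed (0.0%) without a sham library or without ischemia replicate 3. All ischemia values lay above all sham values for 5 of the 9 (Cd14, Myd88, Tlr2, Tlr6 and Tlr7), against 23.6% of tested genes, and below all sham values for none, against 15.0%. The median log2 fold change was 1.92 over the 9 genes and -0.0015 over all tested genes, and 1.04 and -0.045 without ischemia replicate 2. A gene was tested if its mean FPKM over the 6 samples was at least 0.5. Tlr5, Tlr6, Tlr7 and Tlr8 reached that mean only through the ischemia samples, so these counts and this median are a description and lend no support.

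**Figure D1:**
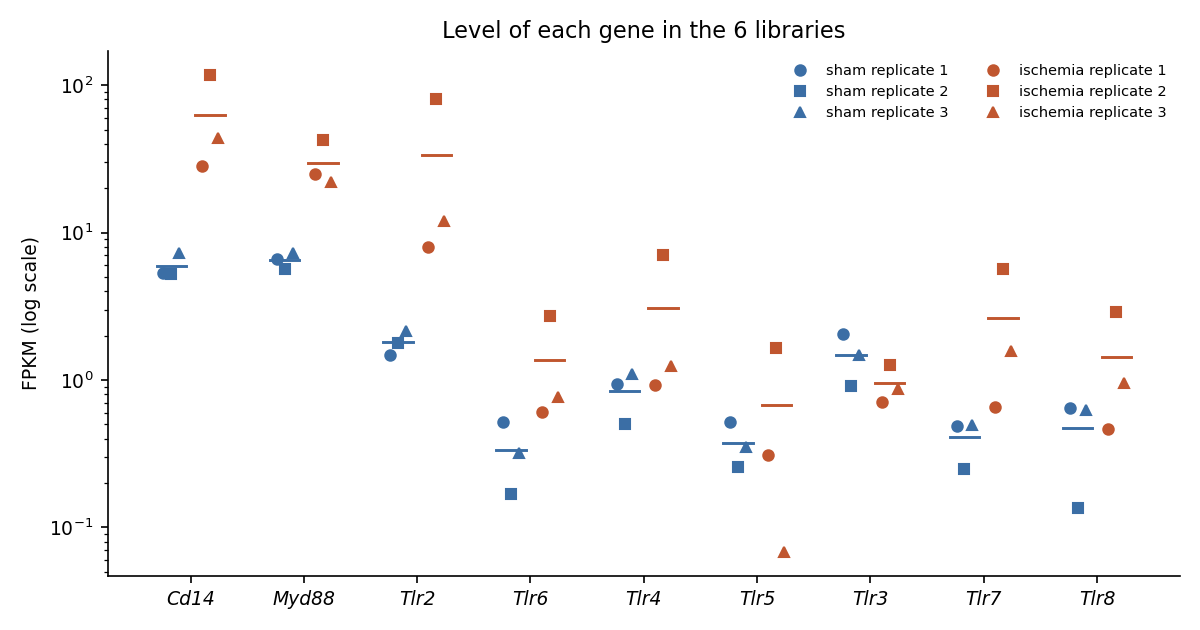
FPKM (log axis) of the 9 measured genes in each library, with sham in blue, ischemia in orange, a marker shape for each replicate number and a bar at the group mean (n = 3). Cd14, Myd88, Tlr2, Tlr6 and Tlr7 have no overlap between the groups, and ischemia replicate 2 is the highest library for all genes but Tlr3.

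Cd14 (chromosome 18, 29560365 to 29562153, minus strand) encodes a lipid-binding protein anchored on the surface of myeloid cells. The 3 sham samples, in the order of their numbers, had 5.36, 5.20 and 7.28 FPKM of Cd14, and the 3 ischemic samples had 28.1, 118 and 43.7. Every ischemia library was thus well above the narrow sham range, and ischemia replicate 2 was 3.27 times the mean of the other two. Counts were 694 to 897 in sham and 3935 to 14964 in ischemia. For Cd14 the fitted log2 difference was 3.29 ± 0.53 (SE, edgeR adjusted p 0.0332). An exact permutation of the samples gave p = 0.1, the smallest value possible with 3 against 3. Cd14 is one of the MAPK pathway genes the study picked from these samples, so its rise here is not independent evidence. By qRT-PCR the paper also reports higher Cd14 in ischemic rat myocardium and in cultured cardiomyocytes under hypoxia. Without ischemia replicate 2 the fitted difference was 2.57 (edgeR adjusted p 0.0234). Cd14 did not pass without sham replicate 1, 2 or 3 (edgeR adjusted p 0.159, 0.0861 and 0.131) or ischemia replicate 3 (0.110).

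Myd88 (chromosome 8, 128022473 to 128026841, minus strand) encodes the shared adaptor of these receptors and of the interleukin-1 receptors. Sham samples had 6.59, 5.65 and 7.28 FPKM of Myd88, and ischemic samples had 24.9, 42.4 and 21.9. Its coefficient of variation in sham, 12.6%, was the lowest of the 9 genes, and in ischemia, at 37.3%, only that of Tlr3 was lower (30.0%). Ischemia replicate 2 was 1.81 times the mean of the other two. For Myd88 the fitted log2 difference was 2.09 ± 0.25 (SE, edgeR adjusted p 0.0272), rank 48 of 13964 genes by p, and the estimate moved between 1.81 and 2.23 as each library was left out. As with Cd14, it did not pass without sham replicate 1, 2 or 3 (edgeR adjusted p 0.157, 0.0819 and 0.125) or ischemia replicate 3 (0.110).

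Tlr2 (chromosome 2, 182840727 to 182846061, minus strand) pairs with Tlr1 or Tlr6 to sense lipoproteins. Its FPKM in the sham samples was 1.48, 1.77 and 2.16, and in the ischemic samples 7.99, 80.5 and 11.9. The groups did not overlap, but ischemia replicate 2 was 8.10 times the mean of the other ischemia libraries. The fitted difference of 4.05 ± 0.92 on the log2 scale (SE), the highest of the 9 genes, just missed the threshold (edgeR adjusted p 0.0511). Without ischemia replicate 2 the change was smaller, at 2.42, and passed (edgeR adjusted p 0.0305). It also passed without ischemia replicate 1 (4.49, edgeR adjusted p 0.0222). It did not pass without sham replicate 1, 2 or 3 (edgeR adjusted p 0.178, 0.119 and 0.156) or ischemia replicate 3 (0.123). In mean FPKM Tlr2 was 5.50 times sham over ischemia replicates 1 and 3 alone.

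Tlr6, a partner of Tlr2, was low in all libraries. FPKM of Tlr6 was 0.519, 0.169 and 0.320 in the sham samples and 0.608, 2.70 and 0.770 in the ischemic samples. The lowest ischemia value lay only slightly above the highest sham value, and the log2 fold change was 1.92 ± 0.65 (SE; edgeR adjusted p 0.106, and 1.04 without ischemia replicate 2). Tlr1, the other partner of Tlr2 and no member of the fixed group, had FPKM of 0.351, 0.111 and 0.214 in sham and 1.04, 7.99 and 1.72 in ischemia. Its log2 fold change was 3.86 ± 0.87 (SE; edgeR adjusted p 0.0510, and 2.60 without ischemia replicate 2). Tlr1 and Tlr6 are close copies that neighbour each other on chromosome 14, and reads of their shared stretches may have been split or lost, so both values are uncertain.

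Tlr4 (chromosome 5, 82587420 to 82601052, plus strand) is the lipopolysaccharide receptor. Its 3 sham values were 0.937, 0.505 and 1.09 FPKM and its 3 ischemia values 0.932, 7.02 and 1.25 FPKM. Ischemia replicate 2 was far above the sham range, replicate 3 slightly above it and replicate 1 within it. The log2 fold change was 1.74 ± 0.78 (SE; edgeR adjusted p 0.174), and it was 0.37 without that library. Tlr5, the flagellin receptor, had FPKM of 0.516, 0.257 and 0.352 in sham and 0.312, 1.64 and 0.0683 in ischemia. Ischemia replicate 3 held the lowest Tlr5 value of all libraries (21 counts) and replicate 2 the highest (525 counts). The Tlr5 log2 fold change of 0.71 ± 0.99 (SE; edgeR adjusted p 0.639) turned to -1.01 without ischemia replicate 2.

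The endosomal receptors had estimates of either sign, and none passed the test. Tlr3, which recognizes double-stranded RNA, had FPKM of 2.06, 0.911 and 1.47 in the sham samples and 0.714, 1.27 and 0.869 in the ischemic samples. The groups overlapped through sham replicate 2, the lowest sham library, and ischemia replicate 2, the highest ischemia library. The log2 fold change of Tlr3 was -0.71 ± 0.34 (SE; edgeR adjusted p 0.199), and it stayed negative, between -0.90 and -0.44, as each library was left out. Tlr7 and Tlr8 are neighbouring genes on the X chromosome that encode receptors for single-stranded RNA. FPKM of Tlr7 was 0.485, 0.248 and 0.497 in sham and 0.660, 5.69 and 1.57 in ischemia, with a log2 fold change of 2.58 ± 0.76 (SE; edgeR adjusted p 0.0840, and 1.45 without ischemia replicate 2). For Tlr8 it was 0.643, 0.136 and 0.627 in sham and 0.465, 2.91 and 0.949 in ischemia, with a log2 fold change of 1.55 ± 0.79 (SE; edgeR adjusted p 0.217, and 0.63 without ischemia replicate 2). The groups were separate for Tlr7 and overlapped for Tlr8, whose ischemia replicate 1 was below 2 of the sham libraries.

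**Figure D2:**
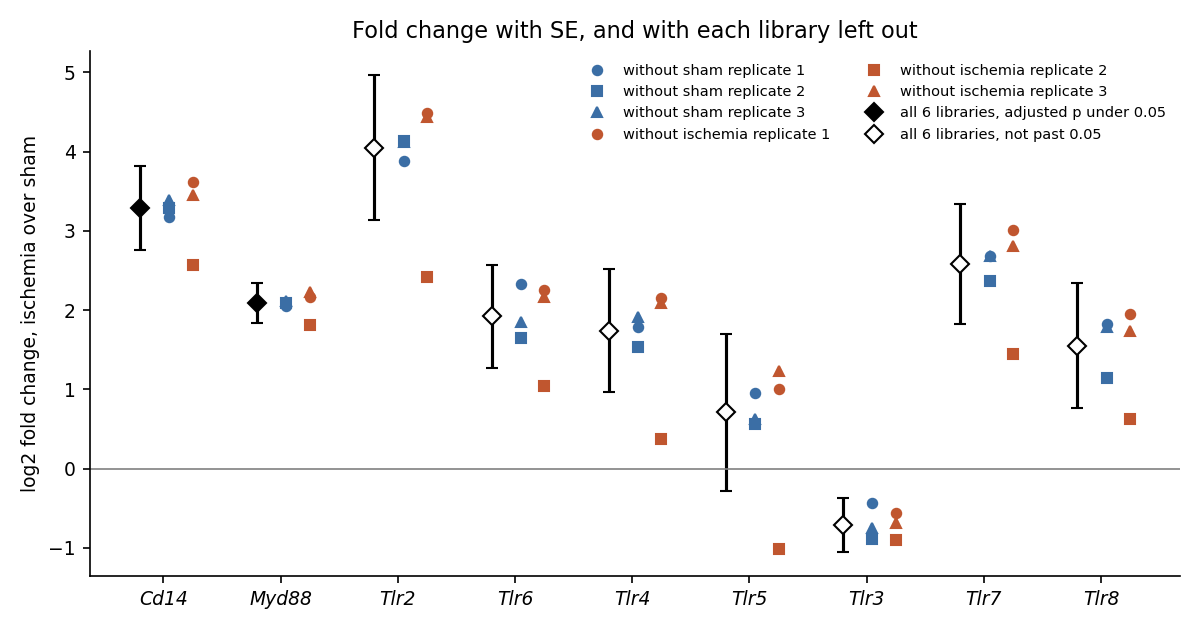
Log2 fold change of ischemia over sham from edgeR for each of the 9 genes (diamonds, error bars are SE, filled where the adjusted p is under 0.05), with the estimates after leaving out each library (blue for a sham, orange for an ischemia library). Leaving out ischemia replicate 2 lowers each estimate, takes Tlr4 to 0.37 and Tlr5 below 0, and leaves Cd14 at 2.57, Tlr2 at 2.42 and Myd88 at 1.81.

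The order of the mean levels differed between the groups. In sham myocardium Myd88 (6.51 ± 0.82 FPKM; SD, n = 3) and Cd14 (5.94 ± 1.16) were highest and overlapped each other. Both were separate from Tlr2 (1.81 ± 0.343), which overlapped Tlr3 (1.48 ± 0.573), next in the order. The other levels, of Tlr4, Tlr8, Tlr7, Tlr5 and Tlr6, ran from 0.844 to 0.336 FPKM, and each overlapped the next. In ischemia Cd14 (63.1 ± 47.7 FPKM; SD, n = 3), Tlr2 (33.5 ± 40.8) and Myd88 (29.7 ± 11.1) had the highest means, each overlapping the next. Tlr2 was above Myd88 only in ischemia replicate 2, and by the median Myd88 (24.9 FPKM) was above Tlr2 (11.9 FPKM). All other receptors of the fixed group were at 3.07 FPKM or less on average. Tlr3 (0.950 ± 0.285) had only Tlr5 below it by the mean, but by the median Tlr3 (0.869 FPKM) was also above Tlr6 (0.770 FPKM), so these places rest on ischemia replicate 2 as well.

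The makeup of the receptor transcripts differed between the groups inside each library, where no scaling between libraries is needed. Of the summed FPKM of the 7 receptors, Tlr2 made up 22.3%, 44.4% and 33.2% in the sham samples and 68.4%, 79.1% and 68.5% in the ischemic samples. The share of Tlr3 was 31.0%, 22.8% and 22.5% in sham and 6.11%, 1.25% and 5.01% in ischemia. Thus Tlr2 was the main receptor transcript in every ischemia library, and Tlr3 in sham replicate 1 only. The share of Tlr4 was 12.6% to 16.7% in sham and 6.91% to 7.98% in ischemia. The sum itself was at most 6.64 FPKM in sham and 11.7, 102 and 17.4 FPKM in ischemia replicates 1 to 3.

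**Figure D3:**
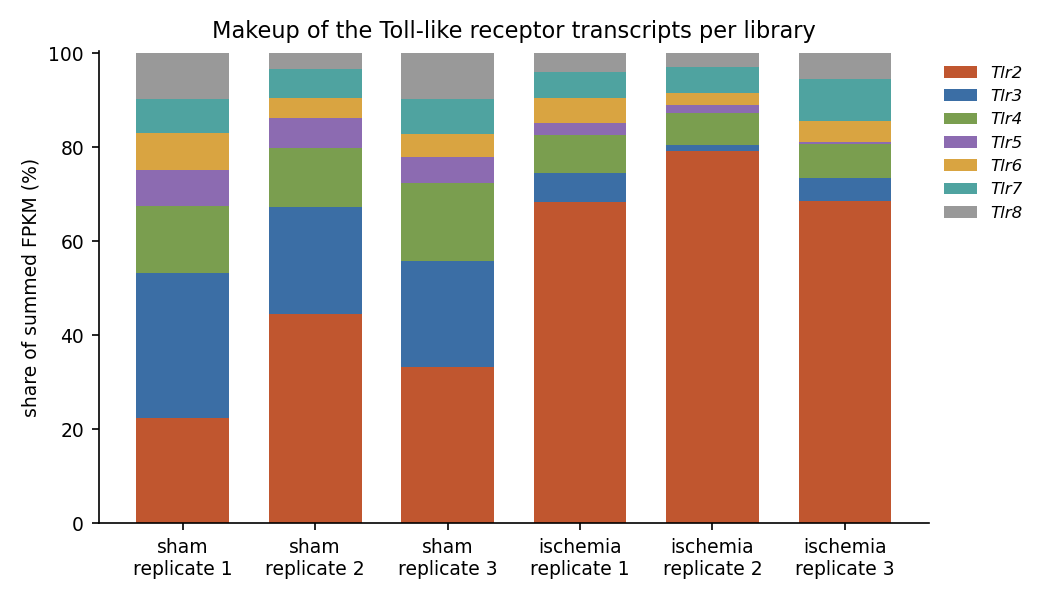
Share of each of the 7 Toll-like receptors in their summed FPKM (percent, stacked bars) in each of the 6 libraries. Tlr2 makes up 68.4% to 79.1% in ischemia against 22.3% to 44.4% in sham, and Tlr3 at most 6.11% against at least 22.5%.

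Ratios of FPKM within a library were then compared for 6 pairs of these genes. The ratio of Cd14 to Tlr4 was 5.72, 10.3 and 6.67 in the sham samples and 30.2, 16.7 and 35.0 in the ischemic samples. It was higher in all ischemia libraries, by 1.83 on the log2 scale (exact permutation p 0.1, adjusted 0.15 over the 6 pairs; 0.1 is the smallest p possible). Tlr2 to Tlr4 was 1.58 to 3.51 in sham and 8.57 to 11.5 in ischemia, a difference of 2.14 on the log2 scale with the same p. Of the 6 ratios this had the lowest spread in ischemia, with an SD of 0.21 on the log2 scale, although the levels of both genes differed several-fold between ischemia libraries. Tlr2 to Tlr6 was 2.85 to 10.5 in sham and 13.1 to 29.8 in ischemia (1.63, same p). Tlr3 to Tlr4 was lower in all ischemia libraries, at 0.180 to 0.766 against 1.35 to 2.20 (-1.93, same p, and -1.26 without ischemia replicate 2). The groups overlapped for Tlr7 to Tlr8 (0.69, exact permutation p 0.3) and for Myd88 to Tlr4 (0.81, exact permutation p 0.4).

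Markers of blood cells differed between the same libraries. Summed FPKM of 11 neutrophil markers was 7.84 to 18.8 in sham and 482 to 3680 in ischemia, and 7 of 8 tested markers were called higher. S100a8 and S100a9 made up most of that sum in every ischemia library. Of the 11 markers, Cxcr1, Retnlg, Ngp and Fpr1 had no counts in any sham library, and Cxcr1 had none in ischemia either. Summed FPKM of 5 pan-leukocyte markers was 41.1 to 57.0 in sham and 132, 701 and 258 in ischemia replicates 1 to 3 (2 of 5 called higher). The sum of 4 monocyte markers was 24.0 to 31.7 in sham and 27.5, 170 and 34.6 in ischemia (0 of 3 tested called). For 10 macrophage markers the sum was 216 to 306 in sham and 260 to 378 in ischemia, with Cd68 and Cd163 called higher (Cd163 not without ischemia replicate 2, edgeR adjusted p 0.0739) and a median log2 fold change of 0.04 over the 10. Of the others, C1qa (-0.66, edgeR adjusted p 0.0504) and C1qc (-0.42, 0.115) were lower in all ischemia libraries than in all sham libraries without passing, and Mrc1 (1.25, 0.0758) and Csf1r (1.06, 0.0941) were higher in all, also without passing. In every sham library C1qa, C1qb and C1qc made up most of the macrophage sum. The sums for B cell, T and NK cell, and dendritic cell markers were at most 30.4 FPKM in any library, and none of these markers was called. Endothelial markers summed to 169 to 202 in sham and 216 to 221 in ischemia, fibroblast markers to 344 to 1150 and 179 to 439, and platelet markers to 26.6 to 78.4 and 63.3 to 172. Of these lists, and of the cardiomyocyte and atrial markers, only the platelet list had a call (1 lower). The part of these cells in the changes of Cd14, Myd88 and Tlr2 was not tested.

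Each gene was also set against Ptprc, the leukocyte common antigen, in the same library. Ptprc FPKM was 1.46, 0.501 and 1.51 in the sham samples and 2.33, 29.1 and 3.25 in the ischemic samples, a log2 fold change of 3.21 ± 1.03 (SE; edgeR adjusted p 0.0968). The estimate for Ptprc was 1.29 without ischemia replicate 2. Relative to Ptprc, Cd14 was 3.68, 10.4 and 4.83 in sham and 12.1, 4.04 and 13.4 in ischemia, and the groups overlapped (0.61 on the log2 scale, exact permutation p 0.4). Tlr2 relative to Ptprc was 1.02, 3.54 and 1.44 in sham and 3.43, 2.77 and 3.65 in ischemia (0.92, exact permutation p 0.3). Myd88 relative to Ptprc overlapped as well (-0.41, exact permutation p 0.8). Lower relative to Ptprc in all ischemia libraries than in all sham libraries were Tlr3 (-3.15), Tlr4 (-1.22) and Tlr5 (-2.69), each with an exact permutation p of 0.1, adjusted to 0.30 over 9 genes. As each library was left out, the difference ran from -3.65 to -2.25 for Tlr3, the latter without ischemia replicate 2. For Tlr5 it ran from -3.34 without ischemia replicate 1 to -2.0 without ischemia replicate 3. Tlr6 (-0.72), Tlr7 (-0.34) and Tlr8 (-1.03) overlapped, with exact permutation p-values of 0.3, 0.4 and 0.2. With each library left out, the range was 0.3 to 1.16 for Cd14 and 0.53 to 1.43 for Tlr2. It was -0.99 to -0.25 for Tlr6, -0.69 to -0.03 for Tlr7 and -1.38 to -0.61 for Tlr8. With the geometric mean of 5 pan-leukocyte markers in place of Ptprc, the groups were also separate for Tlr2 (0.82, exact permutation p 0.1) and Tlr7 (-0.43, exact permutation p 0.1), besides Tlr3, Tlr4 and Tlr5.

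**Figure D4:**
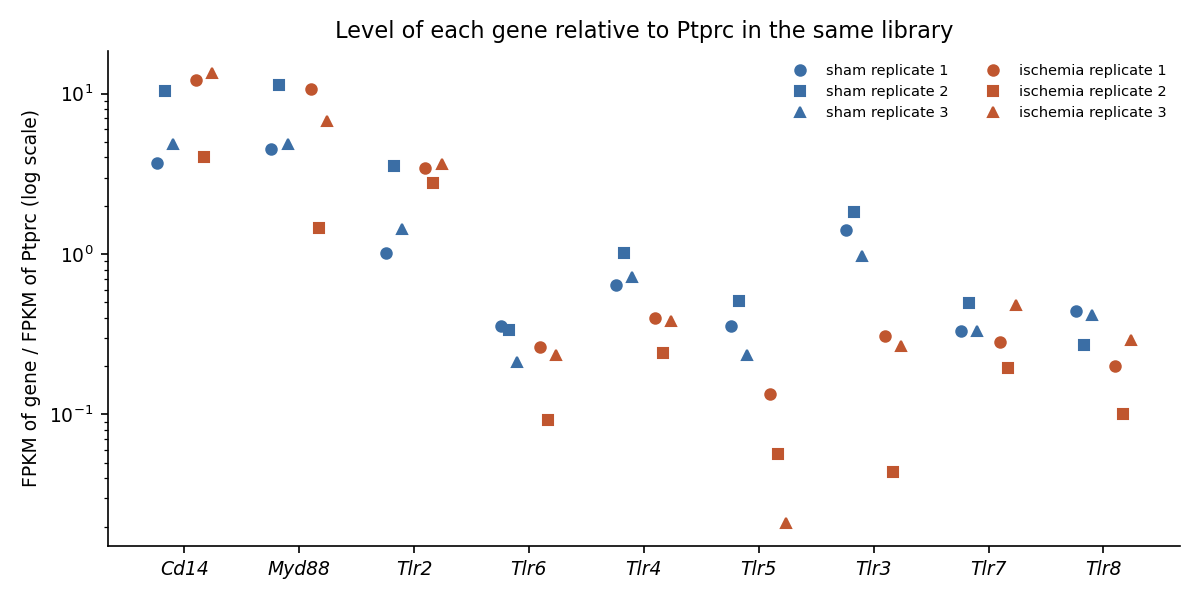
FPKM of each gene divided by FPKM of Ptprc in the same library (log axis), with sham in blue, ischemia in orange and a marker shape for each replicate number. Tlr3, Tlr4 and Tlr5 are lower in all ischemia libraries, and the groups overlap for the other genes, with Cd14 between 3.68 and 13.4 over all libraries.

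The genes whose level moved most like a member were found as those with the smallest root mean square difference between log2(FPKM + 0.1) profiles over the 6 samples, each centred on its own mean. For Cd14 these were C5ar1, the receptor of complement C5a (0.09), Gjb2 (0.13) and Tyrobp, a signaling adaptor of myeloid receptors (0.15). C5ar1 had FPKM of 4.41, 5.04 and 6.60 in sham and 25.1, 95.2 and 38.2 in ischemia. Gjb2 had FPKM of only 0.0612, 0.0572 and 0.117 in sham and 0.72, 2.62 and 1.19 in ischemia. Its sham values were near the added 0.1, so the likeness of Gjb2 depends in part on that constant. For Tlr4 they were Cd300lf, an inhibitory myeloid receptor (0.11), P4ha1, a prolyl hydroxylase subunit (0.14), and F13a1, a coagulation factor chain (0.14). For Tlr3 they were Klhl9 (0.08), Zfp810 (0.10) and Ankrd50 (0.10), and for Myd88 they were Cd8a (0.13), Prr7 (0.14) and Apobec3 (0.17).

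The genes around the receptors were grouped by role in 7 lists with 78 distinct tested genes, of which 19 were called higher and 0 lower in edgeR (background 5.18% and 1.53%). Without ischemia replicate 2, 16 were called higher and 1 lower (Irf7), and none passed without a sham library or without ischemia replicate 3. Of the 78 genes, 11 reached the level needed for a test only through the ischemia samples. Of the other receptors, Tlr9, Tlr11 and Tlr12 were below the level needed for a test, with at most 0.397 FPKM in any library. Among 8 tested accessory proteins, which deliver ligands or fold and move the receptors, none was called, and the median log2 fold change was 0.65. At an unadjusted p under 0.05 in edgeR there were 5 of the 8, against 32.4% of all tested genes, and 1 of these 5 was lower (Tril, -1.63 ± 0.51, edgeR adjusted p 0.0943). Of 20 adaptors, kinases and ubiquitin ligases, only Irak4, the kinase that Myd88 recruits first, was called (log2 fold change 1.3 ± 0.22, SE, edgeR adjusted p 0.0361; list median 0.51). FPKM of Irak4 was 1.98, 1.59 and 2.04 in sham and 4.74, 6.37 and 3.65 in ischemia, so the groups were well apart. Among 15 inhibitors 2 were called higher, the adaptor Dok3 (3.01 ± 0.58, edgeR adjusted p 0.0410, and 2.27 without ischemia replicate 2) and the ribonuclease Zc3h12a (1.22 ± 0.27, 0.0492), and the median was 0.88.

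Further down the pathway, 3 of 10 transcription factors were called higher, with a list median of 0.61. These were the NF-κB subunits Rel (2.68 ± 0.47, edgeR adjusted p 0.0366, tested only through its ischemia level) and Relb (1.16 ± 0.19, 0.0351) and the interferon regulatory factor Irf5 (2.30 ± 0.42, 0.0379). Irf7, another interferon regulatory factor, had FPKM of 223, 107 and 72.8 in sham and 15.1, 120 and 11.9 in ischemia (-1.6 ± 0.93, edgeR adjusted p 0.267). Only ischemia replicate 2 overlapped sham, and without it Irf7 was called lower (-3.35, edgeR adjusted p 0.0417). Of 9 tested genes for molecules described as endogenous activators of Tlr2 or Tlr4, 4 were called higher (median 2.40). The called genes were S100a8 (6.91 ± 1.07, edgeR adjusted p 0.0311) and S100a9 (6.72 ± 1.18, 0.0365), which are also on the neutrophil list, the matrix protein tenascin C, Tnc (4.90 ± 0.75, 0.0303), and fibronectin, Fn1 (2.40 ± 0.50, 0.0458). The estimates were 5.66 for S100a8, 4.94 for S100a9 and 4.02 for Tnc without ischemia replicate 2. Tnc had FPKM of 0.338, 0.394 and 1.05 in sham and 9.71, 37.7 and 9.71 in ischemia. Fn1, Irf5 and Zc3h12a were not called without ischemia replicate 2 (edgeR adjusted p 0.0782, 0.0598 and 0.0704).

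Of 15 tested cytokine, chemokine and enzyme genes described as induced by the receptors, 9 were called higher, and the median log2 fold change was 5.41 (4.12 without ischemia replicate 2). This is a description only, since 6 of the 15 (Tnf, Il6, Cxcl2, Ptgs2, Acod1 and Csf3) reached the FPKM needed for a test only through the ischemia samples. By fitted estimate the highest of the called genes were Acod1, the itaconate enzyme, the growth factor gene Csf3 and the neutrophil chemokine gene Cxcl2. The places of Acod1 and Csf3 are uncertain, because their estimates are taken over sham libraries without counts. Acod1 and Csf3 had no counts in sham and were at least 145-fold and 91.2-fold higher, taken against 3 counts per sham library (edgeR adjusted p 0.0443 and 0.0478). These bounds were 48.6-fold and 27.7-fold without ischemia replicate 2. Cxcl2 had FPKM of 0.158, 0.119 and 0.238 in sham and 10.7, 262 and 23.5 in ischemia (8.96 ± 1.53, edgeR adjusted p 0.0361, and 6.58 without ischemia replicate 2). Il6 had an estimate above that of Cxcl2 but was not called (9.25 ± 2.33, edgeR adjusted p 0.0613, and 4.98 without ischemia replicate 2, below Cxcl2), with 1.90, 131 and 2.34 FPKM in ischemia. The lowest of the 9 were Ccl3 (5.41 ± 0.98, edgeR adjusted p 0.0377, and 4.12 without ischemia replicate 2), Il1b (4.52 ± 0.85, 0.0397, and 3.23) and the adhesion molecule gene Icam1 (1.32 ± 0.27, 0.0450). Tnf, a classical target, overlapped between the groups, with 0.391, 0.718 and 0.273 FPKM in sham and 0.581, 1.66 and 0.952 in ischemia (1.01 ± 0.61, edgeR adjusted p 0.279). The table itself assigns 92 genes to Toll-like receptor signaling, the 9 measured members among them. Of 80 tested genes of that pathway 7 were called higher and 0 lower, beside 5.18% and 1.53% of all tested genes. A log2 fold change above 0 was found for 58 of the 80, beside 49.9% of all tested genes, and the median was 0.57.

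**Figure D5:**
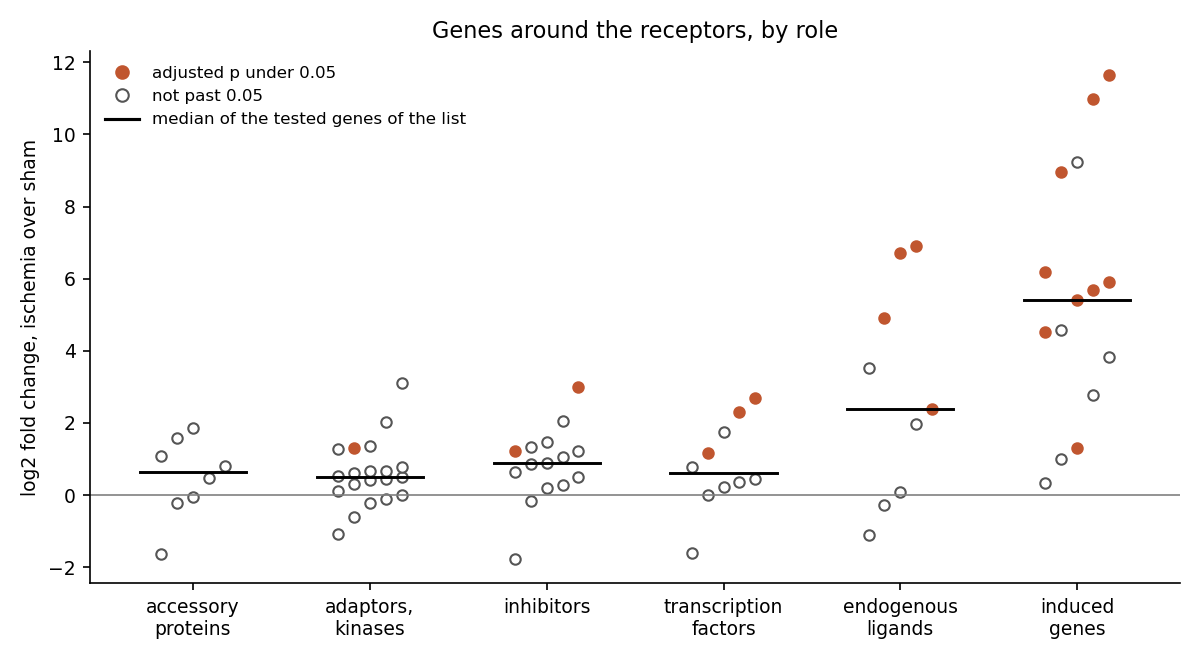
Log2 fold change of ischemia over sham from edgeR for the tested genes of 6 lists around the receptors, filled in orange where the adjusted p is under 0.05, with a bar at the list median. The list medians are 0.65, 0.51, 0.88, 0.61, 2.40 and 5.41 from accessory proteins to induced genes (0.32, 0.34, 0.52, 0.48, 2.16 and 4.12 without ischemia replicate 2), and the called genes are 0, 1, 2, 3, 4 and 9.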

How the data were processed

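Total RNA libraries of 6 rat myocardium samples (3 sham, 3 ischemia) were prepared by the authors with a stranded kit. Their processing notes name STAR and HTSeq, while versions, strand setting and genome build were not given in the sources used here, so positions are those of the deposited table. The deposited counts were raw reads per Ensembl gene. The deposited FPKM values were scaled by the authors to gene length and library size, with genes without reads set to a value near 0. The labels number the samples without saying that each is a separate animal, so p-values measure the spread between these samples.

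Genes whose FPKM averaged 0.5 or more entered the test by edgeR 4.0.16 (R 4.3.3, TMM scaling, quasi-likelihood test, no covariate) at a Benjamini-Hochberg adjusted p of 0.05 over 13964 genes, two-sided. The SE was derived from the F statistic. Ratios were compared by two-sided exact permutation tests over samples (scipy 1.17.1). DESeq2 1.42.0 and limma 3.58.1 were alternatives. The test was checked on simulated counts. At the depth here, 3 counts correspond to 0.0377 to 0.0438 CPM, for counting error only.

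Members and lists were chosen with earlier results of these data known. Named by rule were the members, of each list the called genes (up to the 3 highest and 3 lowest), and for Cd14, Tlr4, Tlr3 and Myd88 the 3 genes of most similar profile. Tlr1, Tlr9, Tlr11, Tlr12, Tnf, Il6, Ptgs2, Tril, Irf7 and the single cell-type markers were added after their values were seen. Marker lists covered leukocytes, neutrophils, monocytes, macrophages, dendritic, B, T and NK cells, platelets, endothelium, fibroblasts, cardiomyocytes and atrium. Alternatives were 3 other scalings, 2 other filters, DESeq2, limma with pseudocounts of 0.1 and 1, the replicate number as a block, the mean of 5 pan-leukocyte markers in place of Ptprc, and each library left out. Ratios with Ly96 were not analysed here.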

Additional observations from a re-analysis of the deposited data

How the results depend on the processing

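Cd14 and Myd88 each passed in 10 of 15 alternatives and Tlr2 in 5. DESeq2 called 5 of the 9 genes (Tlr2, Tlr6 and Tlr7 besides Cd14 and Myd88, against a background of 14.8% of genes called higher). The leave-one-out fits gave 0 to 4 members, 0 to 35 genes of the pathway lists and 0 to 2605 genes in all. The count of 0 arose without each sham library and without ischemia replicate 3, where 4 to 6 of the 9 members had an unadjusted p under 0.05 in edgeR, beside 21.6% to 27.3% of all genes, and the cause was not tested. DESeq2 called 39 genes of the pathway lists and 3813 in all, total-count scaling 592 and no filter 586. With the replicate block 0 members, 0 pathway genes and 0 genes in all passed in edgeR, with 3 of the 9 members at an unadjusted p under 0.05, beside 24.0% of all genes. Deviations of same-numbered samples had a mean correlation of -0.115, so the numbers were not taken as pairs.

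Of 129 re-estimated fold changes 2 reversed, both for Tlr5, at -0.28 with the replicate block and -1.01 without ischemia replicate 2 (leave-one-out range -1.01 to 1.23). Of 105 re-estimated ratios 2 reversed, both for Myd88 relative to Ptprc, at 0.01 without sham replicate 2 and 0.43 without ischemia replicate 2 (leave-one-out range -1 to 0.43). No ratio test could pass, since 3 against 3 samples cannot give a p under 0.1.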
